A study of Homo sapiens with 8 samples.

Results

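Cytosolic chaperones and heat shock genes were read out in HEK293T, a line derived from human embryonic kidney, as ratios between wild-type (WT) cells and a Pcif1-KO line. The genes were chosen by symbol. They comprise the HSP70, HSP110 and HSP90 families, the J-domain proteins named DNAJA and DNAJB, the small heat shock proteins, the chaperonin TRiC and prefoldin. The BAG family, named cochaperones of HSP90 and HSP70, the mitochondrial chaperonin and the heat shock factors HSF1 and HSF2 were also taken, while HSPA5, DNAJB9 and DNAJB11 of the endoplasmic reticulum were left out. Of 8801 genes in the authors' deposited tables, 50 met this rule, and 45 of these had a ratio with both siRNAs. The symbol rule also takes in genes whose proteins work outside the cytosol, namely HSPA9, HSPD1 and HSPE1 of mitochondria and HSPA13, DNAJB12 and DNAJB14 of the endoplasmic reticulum. HSPA1A and HSPA1B, the classical inducible HSP70 genes, were not analysed here.

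The study asks how m6Am, a methylated adenosine beside the mRNA cap that the enzyme PCIF1 writes, bears on transcription through PCF11, a cleavage and termination factor. WT and Pcif1-KO cells received 5 pmol of a scrambled siRNA (siScram) or of an siRNA against PCF11 (siPCF11) and were harvested 48 h later, when nuclear RNA was sequenced from its 3′ end after s4U labelling of newly made RNA. Each of these 4 groups had 1 library, and 4 further libraries, from Pcif1-KO cells overexpressing PCIF1-WT, PCIF1-CD or EGFP, have no ratio used here. The authors made the values, which compare WT with Pcif1-KO as a log2 ratio, 1 per gene and siRNA, so that a positive value is higher in WT cells. Where a pair of values is given, siScram comes first and siPCF11 second. Whether the values count labelled RNA only is not given in the sources used here. Their read depth is unknown, and the loss of PCIF1 cannot be told apart from other differences between the 2 cell lines. PCIF1 itself was not analysed here, which leaves the knockout label without a check from its own gene, and since both libraries of a ratio received the same siRNA, the ratios hold no check of the PCF11 knockdown. Of 6 marker genes named for HEK293T, 5 were listed (INA, LIN28B, NEFL, NEFM and PAX2, not SALL4), and of 7 markers of other cell types none was, though a ratio gives no level. In bulk RNA, fewer cells expressing a gene and less RNA per cell cannot be told apart.

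Chaperones bind unfolded or partly folded proteins and keep them from aggregating. HSP70 works in cycles of ATP binding and hydrolysis, in which J-domain proteins deliver the client and start hydrolysis, and nucleotide exchange factors of the HSP110 and BAG families reset the cycle. HSP90 takes over clients such as kinases and steroid receptors with the help of cochaperones, and prefoldin hands actin and tubulin to TRiC. When misfolded protein accumulates, HSF1 binds heat shock elements, inverted repeats of the sequence GAA, in the promoters of many of these genes.

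A search of promoter sequences showed which of the genes have letters matching such an element. RefSeq promoters (GRCh38.p14) were at hand for 43 of the 50 genes, all but BAG4, CCT6A, CDC37L1, HSF1, HSPA14, PFDN2 and ST13. The 250 bases before each annotated start were searched on both strands for GAANNTTC or TTCNNGAA, a pair of facing or back-to-back GAA units. At least 1 such match was found for 14 of the 43 genes (32.6%), against 852 of 7295 listed genes with a promoter (11.7%). A run of 3 alternating units (either pattern followed, 2 bases of any kind later, by one more unit in the reverse direction), searched for after the sequences had been seen, was found for 5 genes, HSPA8, HSP90AA1, HSP90AB1, HSPD1 and DNAJB6, which is 11.6% of the 43, against 0.411% of listed genes. The 6 windows below are shown because they belong to the 3 genes whose genotype difference passed the test (HSPB8, DNAJB6 and HSPH1) and to the main cytosolic HSP70 and HSP90 genes. Where a gene had several annotated starts, the one with most matches was taken. Each window runs 5′ to 3′ on the gene's strand and ends at the base before the start, and capitals mark the matches.
HSPA8, chr11:123062137-123062386, minus strand: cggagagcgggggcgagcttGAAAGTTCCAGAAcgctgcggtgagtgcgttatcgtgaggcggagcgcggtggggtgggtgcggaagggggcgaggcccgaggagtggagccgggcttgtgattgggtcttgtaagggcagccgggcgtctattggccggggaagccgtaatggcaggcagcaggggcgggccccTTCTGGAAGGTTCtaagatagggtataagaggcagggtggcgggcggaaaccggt
HSP90AA1, chr14:102087045-102087294, minus strand: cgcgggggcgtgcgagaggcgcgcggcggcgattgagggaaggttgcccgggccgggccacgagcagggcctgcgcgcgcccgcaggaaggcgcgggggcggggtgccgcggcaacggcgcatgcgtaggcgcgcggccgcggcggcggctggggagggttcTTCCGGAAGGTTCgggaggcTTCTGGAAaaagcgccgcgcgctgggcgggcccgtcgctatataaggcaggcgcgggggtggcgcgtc
HSP90AB1, chr6:44247693-44247942, plus strand: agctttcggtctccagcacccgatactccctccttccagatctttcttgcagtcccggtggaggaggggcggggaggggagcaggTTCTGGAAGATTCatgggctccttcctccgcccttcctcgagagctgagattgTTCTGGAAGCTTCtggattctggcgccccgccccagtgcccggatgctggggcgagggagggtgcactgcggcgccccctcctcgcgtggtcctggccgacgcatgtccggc
DNAJB6, chr7:157336754-157337003, plus strand: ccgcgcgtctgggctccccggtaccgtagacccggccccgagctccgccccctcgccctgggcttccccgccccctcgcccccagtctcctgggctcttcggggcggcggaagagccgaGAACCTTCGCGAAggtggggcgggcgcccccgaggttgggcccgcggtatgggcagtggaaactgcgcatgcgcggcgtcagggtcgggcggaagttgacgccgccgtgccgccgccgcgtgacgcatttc
HSPB8, chr12:119178681-119178930, plus strand: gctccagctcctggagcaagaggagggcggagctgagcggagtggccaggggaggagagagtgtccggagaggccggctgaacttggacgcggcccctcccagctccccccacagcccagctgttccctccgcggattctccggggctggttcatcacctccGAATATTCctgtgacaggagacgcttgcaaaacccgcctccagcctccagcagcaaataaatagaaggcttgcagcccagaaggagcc
HSPH1, chr13:31162389-31162638, minus strand: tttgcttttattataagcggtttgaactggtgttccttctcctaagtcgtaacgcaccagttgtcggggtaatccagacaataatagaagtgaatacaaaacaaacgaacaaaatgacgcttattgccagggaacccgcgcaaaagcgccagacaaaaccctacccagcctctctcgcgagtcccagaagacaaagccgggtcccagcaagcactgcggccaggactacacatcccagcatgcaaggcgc
For HSPA8, HSP90AA1 and HSP90AB1 the window lies inside the gene record, downstream of the 5′ end of that record. The HSPH1 window held no match, which says only that these letters are not in this window. CCAAT was found for 13 of the 43 genes (30.2%, against 42.9% of listed genes), and TATAA for 10 (23.3%, against 13.7%). Both were searched on either strand of the same 250 bases.

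The genes as a whole sat near 0, and single genes stood out on both sides. HSPB8, a small heat shock protein that works with BAG3 in the autophagic clearance of misfolded proteins, was lowest. DNAJB6, a J-domain protein that holds back the aggregation of polyglutamine proteins, was also lower in WT cells, and HSPH1, the nucleotide exchange factor HSP105 of the HSP110 family, was higher. With siScram, 25 of 45 genes had a ratio below 0, where the share over all genes was 51.1%. Their median was -0.03 (middle 50% -0.20 to 0.17), and that of all 7893 genes was -0.0096 (-0.23 to 0.21). With siPCF11, 25 of 50 genes were below 0, where the share over all genes was also 51.1%. The median was -0.02 (middle 50% -0.26 to 0.23), and that of all 8499 genes was -0.01 (-0.25 to 0.24). The direction was the same with both siRNAs for 30 of 45 genes, 16 below 0 and 14 above it. Over all genes with both ratios 61.7% kept their sign, 31.5% below 0 and 30.2% above. The share of these genes with a fixed direction was thus close to that of genes in general.

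**Figure D1:**
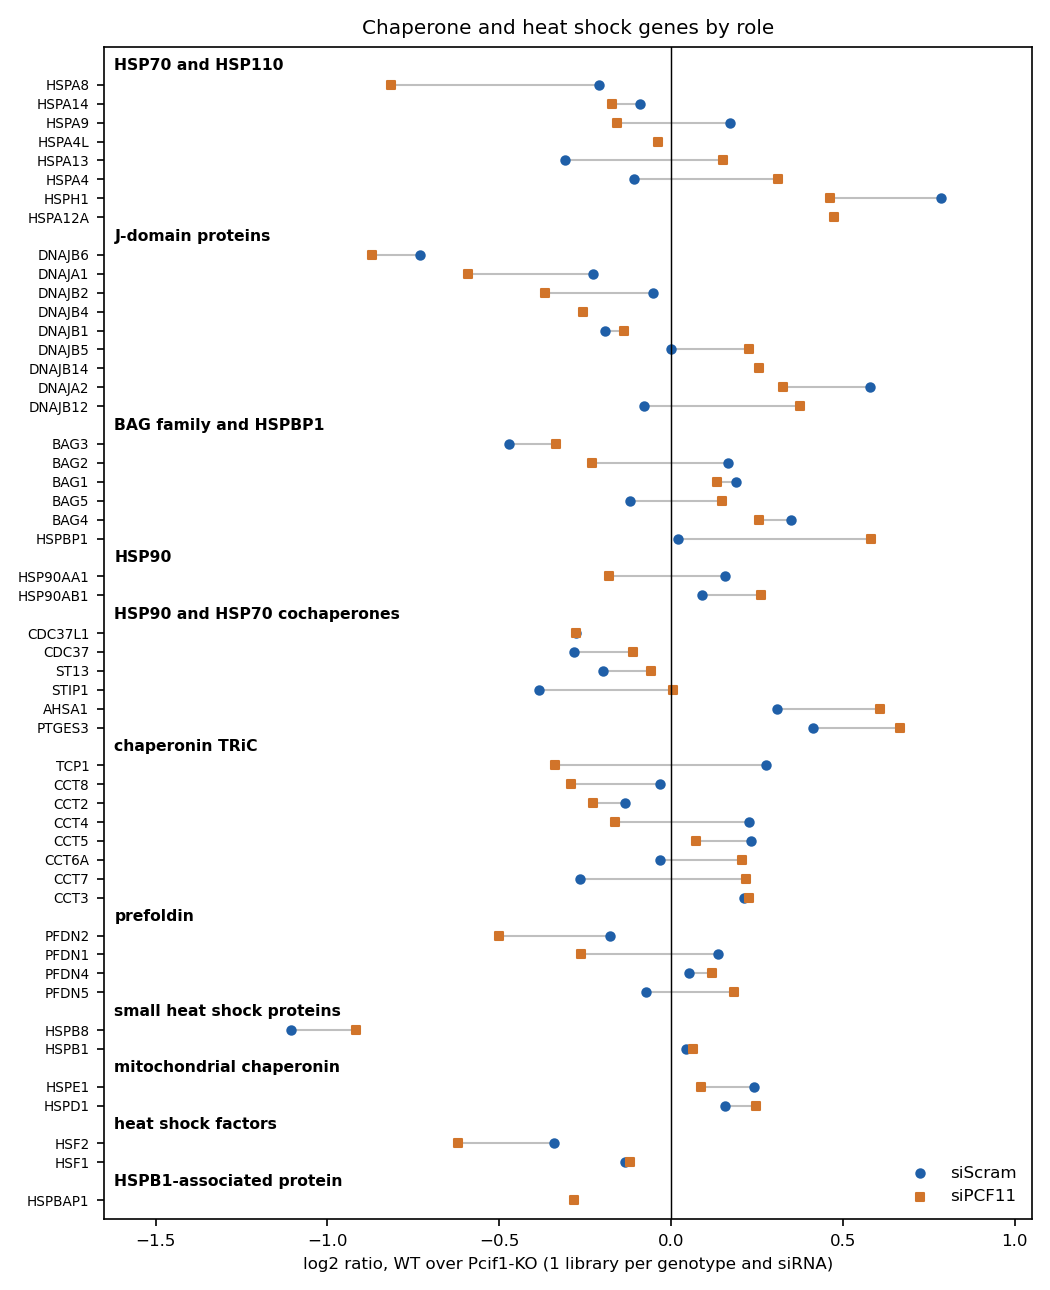
Each row is a gene, grouped by role, and the horizontal axis gives its log2 ratio, WT over Pcif1-KO, with siScram (blue circles) and siPCF11 (orange squares), 1 library per genotype and siRNA, so no error is drawn. Grey lines join both ratios of a gene. HSPB8 and DNAJB6 lie farthest to the left with both siRNAs, HSPH1 is farthest to the right with siScram (0.78) and PTGES3 with siPCF11 (0.67).

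The difference between the lines was tested gene by gene with limma, on the mean of the siScram and siPCF11 ratios. The test takes the disagreement between the siRNAs as error, so a true effect of siPCF11 on a ratio counts as error too. It was fitted to 7591 genes, used 1 SD of 0.28 for all and adjusted p-values by Benjamini and Hochberg over all of them. At an adjusted p under 0.05 it called 3 of the 45 genes, 2 lower and 1 higher in WT, and 10 had an unadjusted p under 0.05 (17.7% of all genes). Over all genes it called 5.49%, with 2.82% lower and 2.67% higher, so the count among chaperones is near the background. All 3 calls rest on the spread shared by all genes, as with a separate spread for each gene limma called 0 genes, chaperones included. After centring on the chromosome or the 10 Mb window the gene called higher was lost as well. The smallest absolute mean that passed over all genes was 0.60, so smaller differences could not be called with this spread.

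HSPB8 (ENSG00000152137.6, hg38 chromosome 12, 119178931 to 119194746) stood at -1.11 (siScram) and -0.92 (siPCF11) on the log2 scale in the authors' deposited tables, 2.15-fold and 1.89-fold below Pcif1-KO cells. Both siRNAs put it far below its neighbours, as the other genes of its 10 Mb window had medians of -0.10 and -0.11. Its mean was -1.01 (95% interval -1.40 to -0.62, limma adjusted p = 6.2e-05), and with a spread of its own it did not pass (limma adjusted p = 0.68). Counted from the lowest ratio it ranked 26 of 7893 genes with siScram and 89 of 8499 with siPCF11. The authors' deposited tables gave -0.47 and -0.33 for BAG3, its partner, with a mean of -0.40 (-0.79 to -0.01) that did not pass the adjusted test (limma adjusted p = 0.26). For HSPB1, the other small heat shock protein listed, which binds unfolding proteins and actin filaments, the authors' deposited tables gave 0.04 and 0.06. The mean of HSPB1 was 0.05 (95% interval -0.34 to 0.44). The difference between HSPB8 and HSPB1 was not tested.

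J-domain proteins, which choose the clients of HSP70, were spread widely, from -0.73 to 0.58 with siScram and from -0.87 to 0.38 with siPCF11. Of 7 listed with siScram 6 were below 0 (median -0.08), and of 9 with siPCF11 5 were (median -0.14). DNAJB6 (ENSG00000105993.14, hg38 chromosome 7, 157337004 to 157417439) was lowest with both, and the authors' deposited tables gave -0.73 and -0.87. Its mean of -0.80 (95% interval -1.19 to -0.41) is 1.74-fold lower in WT cells and passed the test (limma adjusted p = 0.0030), but not with a spread of its own (limma adjusted p = 0.68). The other genes of its window were below 0 as well, at medians of -0.17 and -0.15, and relative to them its mean was -0.64 (limma adjusted p = 0.046). Without DNAJB6 the siPCF11 median of the J-domain proteins was 0.05 in place of -0.14.

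DNAJA1 and DNAJA2, close relatives that both serve cytosolic HSP70, lay on opposite sides of 0. The authors' deposited tables gave DNAJA1 ratios of -0.23 and -0.59 and DNAJA2 ratios of 0.58 and 0.33. Their means were -0.41 (95% interval -0.80 to -0.02) and 0.45 (0.06 to 0.84). Neither gene passed the adjusted test against 0 (limma adjusted p = 0.25 and 0.19). The difference between the 2 genes was not tested. The authors' deposited tables gave -0.19 and -0.14 for DNAJB1, the J-domain protein most often linked with heat shock. DNAJB2, which is abundant in neurons, was at -0.05 and -0.37 there. In the authors' deposited tables DNAJB5 stood at -0.0013 and 0.23, and DNAJB12, a J-domain protein of the endoplasmic reticulum membrane, at -0.08 and 0.38. DNAJB4 at -0.26 and DNAJB14 at 0.25 were listed with siPCF11 only. DNAJB6 was thus the lowest J-domain gene with both siRNAs, while the highest was DNAJA2 with siScram and DNAJB12 with siPCF11.

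In the HSP70 and HSP110 group HSPH1 had the highest mean and HSPA8, an HSP70 gene, the lowest. For HSPH1 (ENSG00000120694.19, hg38 chromosome 13, 31134973 to 31162388), the authors' deposited tables gave 0.78 and 0.46, higher in WT cells with both siRNAs. Its mean of 0.62 (95% interval 0.23 to 1.01) is a 1.54-fold difference (limma adjusted p = 0.039). The call was lost after centring, as the mean was 0.57 (limma adjusted p = 0.066) after centring on the chromosome median and 0.52 (0.13) after centring on the other genes of the window. The authors' deposited tables gave -0.11 and 0.31 for HSPA4, a further HSP110 protein, and its relative HSPA4L was listed with siPCF11 only, at -0.04. The ratios of HSP110 genes thus lay on both sides of 0, and the 95% interval of the HSPA4 mean, -0.29 to 0.49, included 0.

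HSPA8 (ENSG00000109971.13, hg38 chromosome 11, 123057489 to 123062462) encodes the constitutive cytosolic HSP70. Its ratio in the authors' deposited tables was -0.21 (siScram) and -0.82 (siPCF11), the largest drop between the siRNAs of any HSP70 gene. Genes of chromosome 11 stood below 0 in general, with medians of -0.29 and -0.27, so HSPA8 was level with its chromosome under siScram and below it under siPCF11. The mean of -0.51 (95% interval -0.90 to -0.12) did not pass (limma adjusted p = 0.11), and it was -0.23 after chromosome centring (limma adjusted p = 0.62). HSPA8 also has many processed pseudogenes, and how the authors' counting shared reads among such copies was not found in the labels or files. The same holds for DNAJA1, HSPD1 and HSPE1, and the other genes of the group were not checked for such copies.

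The remaining HSP70 relatives lay between -0.31 and 0.47. For HSPA14, which acts at the ribosome, the authors' deposited tables gave -0.09 and -0.17. They also gave 0.17 and -0.16 for the mitochondrial HSPA9, and the authors' deposited tables list HSPA13 of the endoplasmic reticulum at -0.31 and 0.15. HSPA13 lies on chromosome 21, whose medians were 0.19 and 0.15, so it was below its chromosome with siScram and level with it with siPCF11. HSPA12A, a distant relative, was listed with siPCF11 only, at 0.47 in the authors' deposited tables. The group median was -0.10 over 6 genes with siScram and 0.06 over 8 with siPCF11, and neither kept its sign after chromosome centring (0.015 and -0.0070).

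Of the BAG family and HSPBP1, which release nucleotide from HSP70, 4 of 6 were above 0 with each siRNA (medians 0.09 and 0.14). BAG3, described above, was the only one below 0 with both. The authors' deposited tables gave 0.35 and 0.26 for BAG4, a silencer of death receptors, and 0.19 and 0.13 for BAG1. In the authors' deposited tables HSPBP1 stood at 0.02 and 0.58, a rise of 0.56 and the largest among all 45 genes. BAG2, an inhibitor of the ubiquitin ligase CHIP, and BAG5 had opposite signs, and the authors' deposited tables gave 0.17 and -0.23 for BAG2 and -0.12 and 0.15 for BAG5. None of the 6 passed the adjusted test.

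Both cytosolic HSP90 genes were close to 0. The authors' deposited tables gave HSP90AA1, the inducible form, 0.16 and -0.18, and HSP90AB1, the constitutive form, 0.09 and 0.26. Their means were -0.01 (95% interval -0.40 to 0.38) and 0.18 (-0.21 to 0.57), so a log2 difference of up to 0.57 lies within the interval of HSP90AB1. The cochaperones of HSP90 and HSP70 lay on both sides of 0. The authors' deposited tables gave 0.41 and 0.67 for PTGES3, known as p23, which stabilises the closed ATP-bound form of HSP90. AHSA1, which stimulates the HSP90 ATPase, was at 0.31 and 0.61 there. Their means were 0.54 (0.15 to 0.93, limma adjusted p = 0.089) and 0.46 (0.07 to 0.85, 0.18), so both were higher in WT with each siRNA without passing the adjusted test.

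The other 4 cochaperones had means below 0. For CDC37, which brings kinases to HSP90, the authors' deposited tables gave -0.28 and -0.11, and for its relative CDC37L1 -0.28 with both siRNAs. The authors' deposited tables gave -0.20 and -0.06 for ST13, which stabilises HSP70 bound to ADP. STIP1, which links HSP70 to HSP90, was at -0.38 and 0.01 there. STIP1 is on chromosome 11, and the other genes of its window had medians of -0.32 and -0.17. The group medians were -0.24 and -0.03 over 6 genes, and no gene of the group passed the adjusted test.

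TRiC is a ring-shaped complex of 8 different subunits, all of which were listed. They showed no shared direction, with 4 of 8 above 0 with siScram (median 0.09) and 4 with siPCF11 (median -0.05). CCT3 and CCT5 were above 0 with both siRNAs, where the authors' deposited tables gave 0.21 and 0.23 for CCT3 and 0.23 and 0.07 for CCT5. CCT2 at -0.13 and -0.23 and CCT8 at -0.03 and -0.29 were below 0 with both in the authors' deposited tables, and for CCT8 this is against its chromosome 21. The other 4 subunits changed sign between the siRNAs. In the authors' deposited tables TCP1 went from 0.28 to -0.34, CCT4 from 0.23 to -0.16, CCT7 from -0.27 to 0.22 and CCT6A from -0.03 to 0.21. The 95% intervals of all 8 subunit means included 0, and no difference between subunits was tested.

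Prefoldin, which passes unfolded actin and tubulin to TRiC, was represented by 4 genes named PFDN with medians of -0.0092 and -0.07. VBP1, prefoldin subunit 3, is not taken by the symbol rule, and the authors' deposited tables gave -0.21 and -0.40 for it. With VBP1, added after the values were seen, the medians were -0.07 and -0.26. Of the PFDN genes PFDN2 was lowest, with -0.18 and -0.50 as its ratios in the authors' deposited tables (mean -0.34, 95% interval -0.73 to 0.05). In the authors' deposited tables PFDN1 stood at 0.14 and -0.26 and PFDN5 at -0.07 and 0.18. For PFDN4, the authors' deposited tables gave 0.05 and 0.12, but it lies on chromosome 20, where genes had medians of 0.29 and 0.37, and relative to its chromosome its mean was -0.24. HSPD1 and HSPE1, the barrel and the lid of the mitochondrial chaperonin, are divergent neighbours on chromosome 2 whose gene records start 105 bases apart. All 4 of their ratios were above 0, and the authors' deposited tables gave 0.16 and 0.25 for HSPD1 and 0.24 and 0.09 for HSPE1. The 95% intervals of their means, -0.19 to 0.59 and -0.23 to 0.55, included 0.

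The authors' deposited tables gave -0.13 and -0.12 for HSF1, the main transcription factor of the heat shock response (mean -0.13, 95% interval -0.52 to 0.26). For HSF2, which forms mixed trimers with HSF1, the authors' deposited tables gave -0.34 and -0.62. Its mean was -0.48 (-0.87 to -0.09) and did not pass the adjusted test (limma adjusted p = 0.15). HSPBAP1, named for its binding to HSPB1, was listed with siPCF11 only, at -0.28 in the authors' deposited tables. Both heat shock factors were thus below 0 in each library pair, HSF1 by little.

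**Figure D2:**
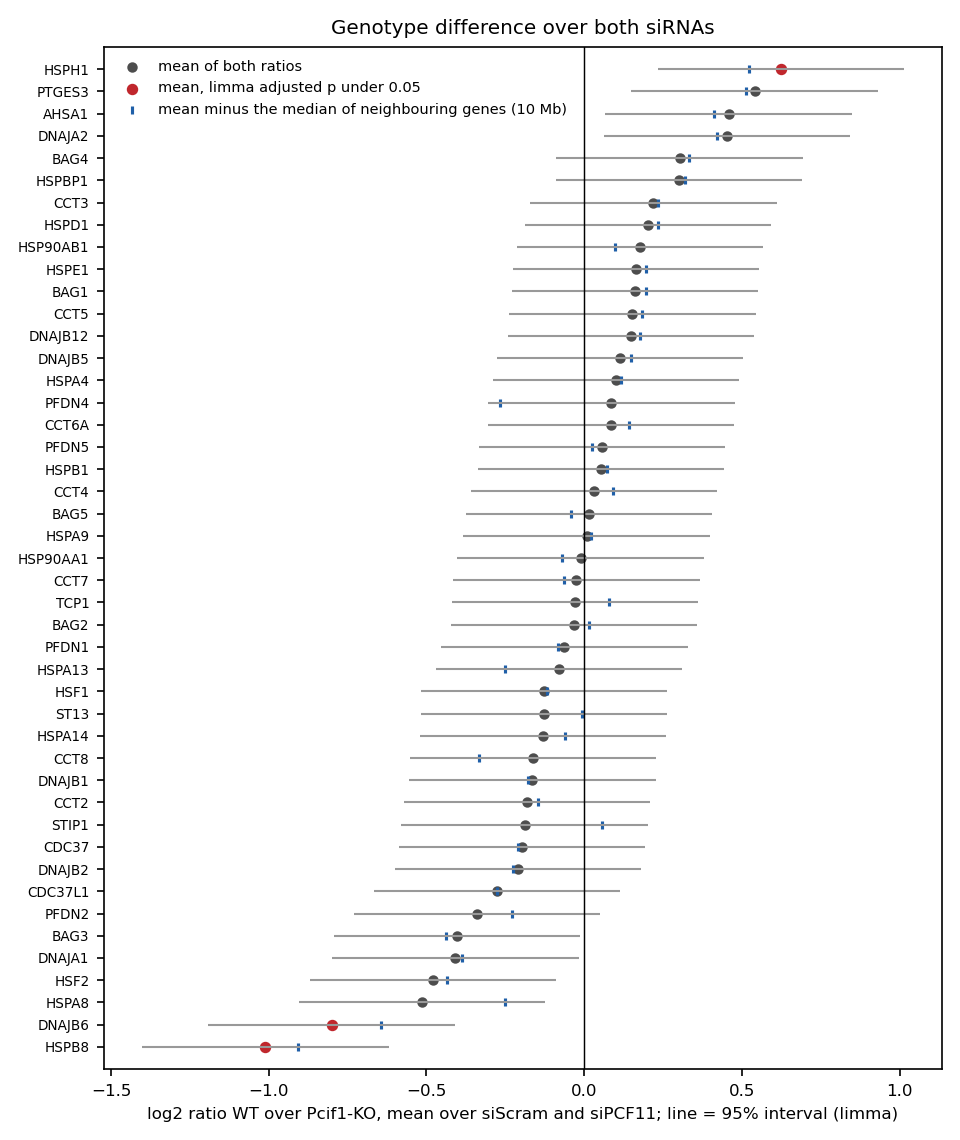
Points are means of the log2 ratios, WT over Pcif1-KO, across siScram and siPCF11 for the 45 genes listed with both, grey lines are 95% intervals from limma, and red points passed an adjusted p under 0.05. Blue ticks show the mean less the median of its neighbours within 10 Mb windows, which brings HSPA8 from -0.51 to -0.25 and PFDN4 from 0.09 to -0.27.

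Few genes lay beyond 0.5 in either direction. With siScram these were HSPB8 and DNAJB6 below, where 6.98% of all genes lay, and HSPH1 and DNAJA2 above, where 6.11% did. With siPCF11 the 6 genes below -0.5 were HSPB8, DNAJB6, HSPA8, HSF2, DNAJA1 and PFDN2, where 8.7% of all genes lay, and the 3 above 0.5 were PTGES3, AHSA1 and HSPBP1, where 8.81% did. HSPB8 and DNAJB6 were the only genes of the group beyond 0.5 in the same direction with both siRNAs, which 2.25% of all genes were on the lower side. On the upper side none of the 45 was, against 2.13% of all genes. The siPCF11 ratio was above the siScram ratio for 23 of 45 genes, a share near the 50.8% of all genes. The largest changes were those of TCP1 (-0.61), HSPA8 (-0.61), HSPBP1 (0.56), CCT7 (0.48) and HSPA13 (0.46), computed from the authors' deposited tables. With 1 library per genotype and siRNA these changes have no error and were not tested. Across the 45 genes the ratios with siScram and siPCF11 had a Pearson correlation of 0.64, and across all 7591 genes one of 0.43. HSPB8 and DNAJB6, far below 0 with both siRNAs, are among the 45 genes, and the correlation without them was not computed. The difference between the correlations was not tested. These correlations are across genes of the same 2 cell lines.

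**Figure D3:**
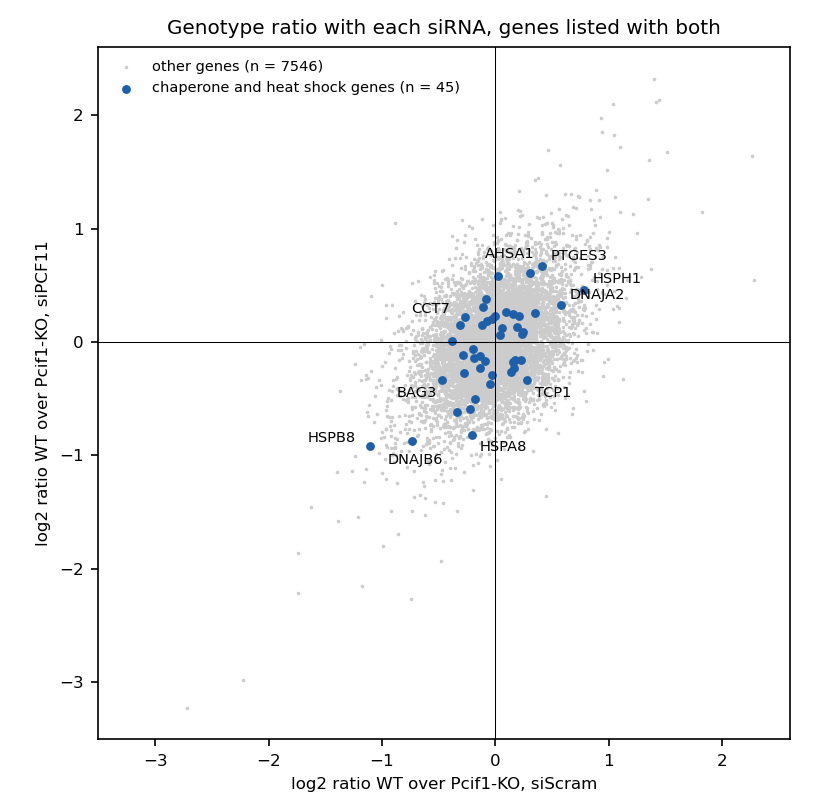
Each point is a gene placed by its log2 ratio, WT over Pcif1-KO, with siScram (horizontal axis) and siPCF11 (vertical axis). Blue points are the 45 chaperone and heat shock genes and grey points the other 7546 genes. Most blue points lie in the central cloud, with HSPB8 and DNAJB6 at its lower left edge and TCP1 and CCT7 in opposite quadrants.

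Genes with letters matching a heat shock element before an annotated start, here called an element, were compared with the other genes that had a RefSeq promoter. With siPCF11, 11 of the 14 genes with an element were below 0, with a median of -0.23, and 9 of the 29 without one were, with a median of 0.15. The 11 were HSPB8, DNAJB6, HSPA8, DNAJA1, TCP1, DNAJB4, BAG2, CCT2, HSP90AA1, DNAJB1 and HSPA4L, and the 3 above 0 were HSP90AB1, HSPD1 and HSPB1. With siScram, 6 of the 12 genes with an element were below 0 (median -0.05), as were 13 of the 26 without one (median 0.0091). The siRNAs thus do not cover the same genes. DNAJB4 and HSPA4L, with an element and below 0, had a ratio with siPCF11 only. So did DNAJB14 and HSPA12A, above 0, and HSPBAP1, below 0, all without an element. Among all listed genes 52.8% of those with an element and 50.8% of those without were below 0 with siPCF11. The comparison was chosen with these values known and was not tested. Of the 5 genes with a run of 3 units, HSPA8 and DNAJB6 were below 0 with both siRNAs, HSP90AB1 and HSPD1 above it with both, and HSP90AA1 changed sign.

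**Figure D4:**
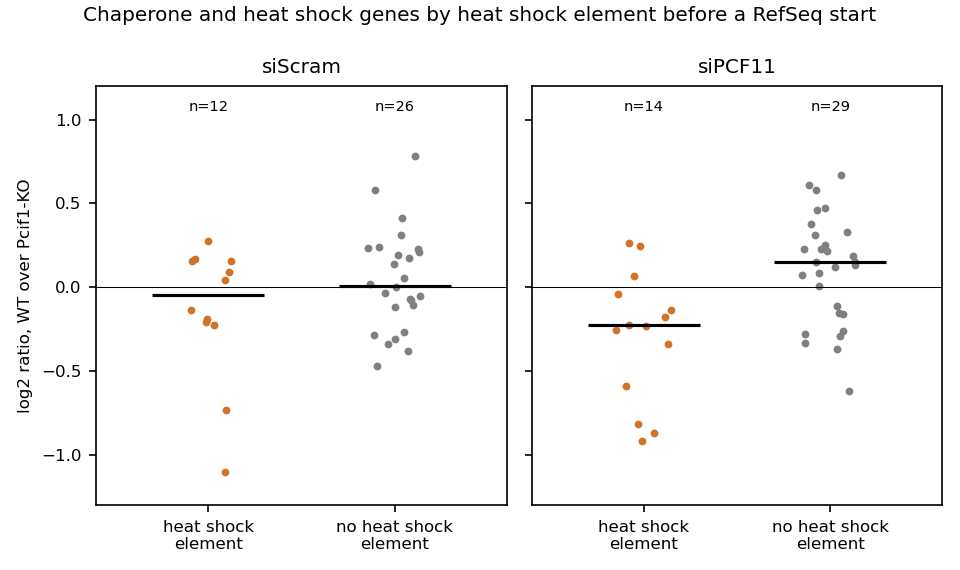
Points are the log2 ratios, WT over Pcif1-KO, of chaperone and heat shock genes, split by whether GAANNTTC or TTCNNGAA occurs in the 250 bases before a RefSeq start, for siScram (left) and siPCF11 (right). Black lines are medians, which were -0.05 and 0.0091 with siScram and -0.23 and 0.15 with siPCF11.

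By the authors' classes, 34 of the 50 genes (68%) were m6Am genes, against 48.8% of all listed genes, and 24 (48%) were long genes, against 60.0%. The RefSeq span had a median of 18.5 kb, against 30.1 kb. Since m6Am requires a transcript that starts with adenosine, the base at each RefSeq start was read. An A stood at 1 start or more for 18 of 30 m6Am chaperone genes (60%) and 7 of 13 non-m6Am ones (53.8%), against 57.8% and 49.5% of all listed genes of these classes. The m6Am members were at medians of -0.0070 (siScram) and 0.03 (siPCF11), where all m6Am genes were at -0.0023 and 0.03. The non-m6Am members had medians of -0.05 over 13 genes and -0.15 over 16, where all non-m6Am genes were at -0.02 and -0.05. Of the genes called, DNAJB6 and HSPH1 are long m6Am genes that lay on opposite sides of 0, and HSPB8 is a short non-m6Am gene. Long chaperone genes had medians of -0.11 and -0.09 and short ones 0.02 and 0.08, where all long genes were at 0.0031 and -0.03 and all short genes at -0.03 and 0.02.

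Other genes of protein folding were set beside the group. Chaperones of the endoplasmic reticulum mostly had ratios below 0, 11 of 13 with siScram (median -0.58) and 9 of 12 with siPCF11 (median -0.31). Over all genes 51.1% were below 0 with each siRNA. In this list limma called 6 of 12 lower and none higher, against 2.82% and 2.67% of all genes. The authors' deposited tables put HSPA5, the HSP70 of this compartment, at -0.65 and -0.70 (limma adjusted p = 0.018), beside -0.21 and -0.82 for cytosolic HSPA8. For HSP90B1, its HSP90, the authors' deposited tables gave -0.58 and -0.73 (limma adjusted p = 0.025), beside values between -0.18 and 0.26 for HSP90AA1 and HSP90AB1. In the authors' deposited tables the list ran from HYOU1, an HSP110 relative, at -1.40 and -1.14 to PDIA3 at -0.05 and 0.39. HYOU1, like HSPA8, is on chromosome 11, whose genes had medians of -0.29 and -0.27. The genes called were HYOU1, DNAJB9, PDIA4, HSPA5, CALR and HSP90B1. Mitochondrial chaperones and proteases had medians of 0.08 and 0.09 over 13 genes with none called. They ran, in the authors' deposited tables, from GRPEL2 at -0.11 and -0.56 to CLPP at 0.35 and 0.37. HSPA9, HSPD1 and HSPE1 are in both this list and the group. The differences between these lists were not tested.

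Further cochaperones of HSP90 and HSP70 had medians of 0.12 and 0.16, with none of 22 called. In the authors' deposited tables PPP5C was lowest at -0.31 and -0.73 and NUDC highest at 0.39 and 0.77. DNAJC proteins had a median of 0.24 with siScram (5 of 18 below 0) and -0.11 with siPCF11 (10 of 18), again with none of 17 called. The authors' deposited tables gave -0.31 and -0.21 for DNAJC30, the lowest, and 0.28 and 0.88 for DNAJC11, the highest. Partners of TRiC had medians of 0.0063 and -0.18 with none of 8 called. Here the authors' deposited tables gave -0.39 and -0.35 for UXT, the lowest, and 0.13 and 0.94 for PDRG1, the highest. Of known HSF1 targets outside the group, 14 of 18 were below 0 with siScram (median -0.17), where 51.1% of all genes were. With siPCF11, 12 of 17 of these targets were below 0 (median -0.10), where the share over all genes was also 51.1%. HMOX1, the heme oxygenase that HSF1 shares with NRF2, was the only one called, where the authors' deposited tables gave -0.68 and -0.64 (limma adjusted p = 0.024). The highest was the HSP90 cochaperone FKBP4, for which the authors' deposited tables gave 0.15 and 0.69. CHORDC1 and FKBP4 are in both this list and that of further cochaperones. DNAJC3 is also in the list of the endoplasmic reticulum and DNAJC19 in that of mitochondria.

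**Figure D5:**
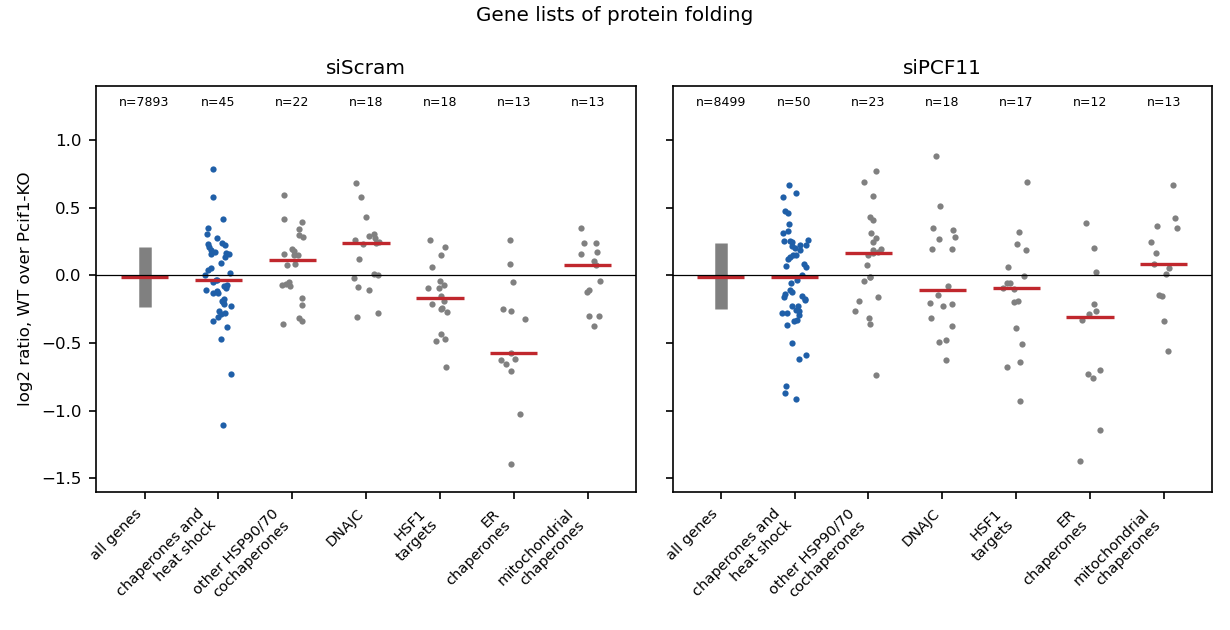
Points are the log2 ratios, WT over Pcif1-KO, of gene lists of protein folding with siScram (left) and siPCF11 (right), red lines are medians, and for all genes the grey bar spans the middle 50%. Chaperones and heat shock genes (blue) centre near 0, and chaperones of the endoplasmic reticulum (ER) have medians of -0.58 and -0.31.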

How the data were processed

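Nuclear RNA of HEK293T cells was sequenced from mRNA 3′ ends, per the labels' protocols. STAR 2.7.10a, HTSeq 2.0.1 and DESeq2 1.30.1 are listed without roles, per the submitters' processing notes, as are cutadapt 3.7, bcl2fastq 2.20 and the build hg38. The authors deposited log2 ratios of WT over Pcif1-KO in 2 tables of long and short genes, each with m6Am and non-m6Am columns per siRNA, and these were used as deposited. How they were scaled, shrunk or filtered and whether they count labelled RNA only is not given in the sources used here. Nor is it given how classes were set and whether the knockout is 1 clone. Counts and levels were not used here, so no depth, interval of counting error or filter on low values could be had, and a ratio can also reflect a shift of the cleavage site.

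Gene IDs were matched without version to symbols (8792 of 8801) and through these to RefSeq spans on GRCh38 (8725, all 50 members). limma 3.58.1 tested the mean of both ratios against 0, two-sided, with 1 residual degree of freedom per gene, and estimated 1 spread common to all genes. Its p-values measure only the disagreement between the siRNAs, not between cultures or clones. Its code was run on simulated ratios with known shifts. Class and list medians are descriptions with no test. Window values are relative to the other genes of fixed 10 Mb windows with at least 15 genes, or else of the chromosome. Any member could be named, and of each other list the highest and lowest mean and any gene called. Members, lists and tests were chosen with earlier results of these data known.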

Additional observations from a re-analysis of the deposited data

Results flagged for a closer look

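2 TRiC subunits had ratios of opposite sign with siScram and siPCF11, each at least 0.2 from 0. For CCT7 the ratio was 0.48 higher with siPCF11, at -0.27 and 0.22 in the authors' deposited tables. For TCP1 the change was -0.61, from 0.28 to -0.34 in the authors' deposited tables. Over all 7591 genes with both ratios 617 (8.13%) met the same criterion, so 2 of 45 is no more than in genes at large. Each ratio rests on 1 library per genotype, and the difference between the siRNAs was not tested.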

How the results depend on the processing

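HSPB8 and DNAJB6 were called lower in WT under every alternative with moderated spread, with adjusted p between 4.7e-05 and 0.0027 and between 0.0025 and 0.046. HSPH1 was not called after centring on the chromosome or on the window, which left 0 members called higher. With no moderation 0 genes were called lower or higher, members included (559 had an unadjusted p under 0.05). Over all genes, calls lower and higher were 126 and 115 after window centring and 124 and 131 without chromosomes 11, 20, 21 and X, which also tests fewer genes. At a threshold of 0.10 the calls higher were 305, with 2 members, HSPH1 and PTGES3. A limit of 1 left 1 member below and 0 above with siScram and 0 on either side with siPCF11. A limit of 0.25 gave 9 and 6 with siScram and 14 and 11 with siPCF11. The siPCF11 median of members listed with both siRNAs was 0.0057. After chromosome centring the group medians were 0.015 (siScram) and -0.0070 (siPCF11) for HSP70 and HSP110, -0.25 for J-domain proteins, 0.039 for cochaperones and 0.0091 for TRiC (all 3 siPCF11), and -0.14 (siScram) and -0.23 (siPCF11) for prefoldin. With VBP1, an alternative chosen after seeing the data, prefoldin was at -0.072 (siScram) and -0.26 (siPCF11). Without the member farthest from the median, TRiC was at 0.21 with siScram (without CCT7) and 0.072 with siPCF11 (without TCP1), prefoldin at 0.053 and 0.12 (without PFDN2) and the J-domain proteins at 0.045 with siPCF11 (without DNAJB6). Means that turned sign, none of them called, were BAG2 (0.015 after either centring), BAG5 (-0.041, window), PFDN4 (-0.24 chromosome, -0.27 window), STIP1 (0.092 and 0.055) and TCP1 (0.017 and 0.079). The cause of these changes was not tested. No paired analysis was possible because no group behind the ratios has numbered replicates to pair. The pairing of genotypes within each siRNA is already held in the ratios. Unknown depth limits every value.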
